A study of Mus musculus with 8 samples.

Results

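Broad Rad21 peaks were single entries of the deposited peak lists that spanned 2000 bp or more from start to end. They were selected on width alone, on chromosomes 1 to 19, from 3.20 Mb on, and without chromosome 12 past 114.5 Mb, where the edited Igh locus and the VH genes lie. The rule took 5276 peaks out of 193738 in the same stretch of the genome (2.72%), and out of 199072 deposited in all. Joined wherever they overlapped by at least 1 bp, the 5276 peaks formed 3042 broad loci of the mm9 genome, 8.64 Mb together.

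Rad21 is the kleisin subunit that closes the cohesin ring around the SMC proteins. Cohesin extrudes chromatin loops and halts at sites bound by CTCF, and in mammalian cells most of its mapped signal stands there as narrow peaks. In B cells, loop extrusion brings the switch regions of the heavy-chain locus Igh next to each other before they are recombined. A peak caller draws a peak for as long as the signal stays past a threshold, so the width in a list depends on the signal of that library as well as on the site.

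The 8 Rad21 ChIP-seq libraries came from CH12F3, a mouse B lymphoma line that can switch its antibody class in culture. None of the lines had AID, whose deamination of switch regions begins switch recombination, and each had been given anti-CD40, IL4 and TGF-β for 72 h. The engineered Igh alleles crossed 2 features, and each of the 4 genotypes had 2 libraries. PS_Ia (Iγ3-PS-Iα) and PS_Ca (Iγ3-PS-Cα) carried a deletion between Sγ3 and Sα, the γ3 and α switch regions, that left only parts of both. FS_Ia (Iγ3-FS-Iα) and FS_Ca (Iγ3-FS-Cα) kept both switch regions at full length, with Cγ3 to Cα deleted in FS_Ia and Cγ3 to Iα in FS_Ca. Ia lines were made in cells the labels call aInv, and Ca lines in cells whose non-coding Igh allele had lost the stretch from VH to the CTCF-binding elements at its 3' end. Ia against Ca stands for orientation here, and PS against FS for switch length. Each orientation had its own parental cells, so the effects of orientation and of parental cells cannot be told apart. The labels leave unsaid whether the replicates were cultured apart, and the p-values then cover only the spread between the samples at hand. The prefixes of the peak names put the libraries into 3 sets, namely the 4 FS libraries, PS replicates 1 and PS replicates 2, so that the effects of set and of switch length cannot be told apart.

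The number of broad peaks ran from 20 to 2242 per library, and replicates of 1 genotype could lie further apart than the genotype means of 46.0 (FS_Ia) to 1272 (PS_Ia). PS_Ia replicates 1 and 2 held 302 and 2242 broad peaks, and PS_Ca replicates 1 and 2 held 1398 and 21. FS_Ia replicates 1 and 2 held 20 and 72, and FS_Ca replicates 1 and 2 held 23 and 1198. A library with 1198 or more broad peaks was therefore found in PS_Ia, PS_Ca and FS_Ca, each time beside a replicate with far fewer, and none in FS_Ia. As a share of the peaks in the same stretch, broad peaks made up 1.51% and 4.79% in PS_Ia, 4.65% and 0.204% in PS_Ca, 0.149% and 0.282% in FS_Ia, and 0.139% and 3.86% in FS_Ca, in the order of the replicates. They took a larger share of the length covered by peaks, up to 18.9% in PS_Ia replicate 2 and as little as 0.743% in FS_Ia replicate 1.

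**Figure D1:**
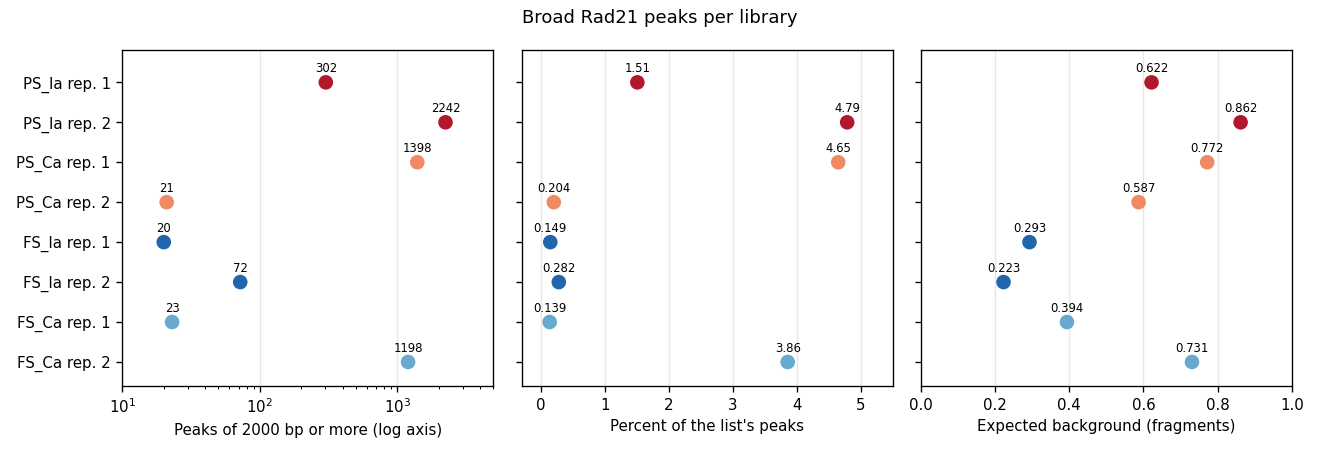
Broad peaks per library. The left panel gives the number of peaks of 2000 bp or more on a log axis, the middle panel their percent of the list, and the right panel the expected background in fragments that the fold values imply. The 2 points of one colour are the replicates of a genotype, and in PS_Ca they stand at 1398 and 21.

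Neither orientation, with its parental cells, nor switch length, with its sets of peak names, separated the libraries by their broad peaks. Ia libraries held 659 ± 1062 and Ca libraries 660 ± 741 broad peaks (SD, n = 4 each), a difference of -1 with an exact two-sided permutation p of 0.943 over 70 assignments. The mean was 990.8 ± 1024 broad peaks in PS libraries against 328.2 ± 580 in FS libraries (SD, n = 4 each), 662.5 more in PS (exact permutation p = 0.229). As shares, Ia minus Ca was -0.530 percentage points (1.68% ± 2.16 in Ia against 2.21% ± 2.38 in Ca; exact permutation p = 0.971), and PS minus FS was 1.68 points (2.79% ± 2.30 in PS against 1.11% ± 1.84 in FS; exact permutation p = 0.2). Adjusted by Benjamini and Hochberg's method over these 4 contrasts, p was 0.971 for both Ia contrasts and 0.457 for both PS contrasts, where 4 against 4 libraries allow no p below 0.0286. Every difference was smaller than the SD of the group with the larger spread, and Ia, Ca, PS and FS each held at least 1 library with 20 to 23 broad peaks and 1 with 1198 or more. Without PS_Ia replicate 2, the difference in number was -528.7 for Ia minus Ca and 245.4 for PS minus FS, and leaving out any of 5 libraries turned the sign of the first, to between 118 without PS_Ia replicate 1 and 245 without PS_Ca replicate 1. Within the sets of peak names, Ia minus Ca was -1096 in PS replicates 1, 2221 in PS replicates 2 and -564.5 in the FS set, with no test. No set holds both PS and FS.

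Broad peaks were more numerous in longer lists. Lists ran from 10304 peaks in PS_Ca replicate 2 to 46786 in PS_Ia replicate 2 within the chosen stretch, and their length went with the number of broad peaks (Pearson's r = 0.927, exact permutation p = 0.00139; Spearman's rho = 0.929, exact permutation p = 0.00223; n = 8). Their share rose with list length too (r = 0.855, exact permutation p = 0.00278; rho = 0.857, exact permutation p = 0.0107). Adjusted over 3 relations, these p-values were 0.00417, 0.00670, 0.00417 and 0.0154. Without PS_Ca replicate 2 and PS_Ia replicate 2, the lists farthest from the median length, r was 0.839 for the number (exact permutation p = 0.0403) and 0.824 for the share (exact permutation p = 0.05). Within the 4 FS libraries r was 0.798 (exact permutation p = 0.0417) for the number and 0.794 (exact permutation p = 0.0833) for the share. No p below 0.0417 is possible with 4 libraries, and FS_Ca replicate 2 held 1198 broad peaks where the other FS libraries held 20 to 72. The sets of PS libraries hold 2 each and are too small for a value.

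Fold enrichment in the lists rises in equal steps, from which the summit height in fragments and the expected background per position could be read. The background was 0.622 and 0.862 fragments in PS_Ia replicates 1 and 2, 0.772 and 0.587 in PS_Ca, 0.293 and 0.223 in FS_Ia, and 0.394 and 0.731 in FS_Ca. The 3 libraries with 1198 or more broad peaks had the 3 highest backgrounds. Background and number of broad peaks gave r = 0.837 (exact permutation p = 0.0115, adjusted 0.0115) and rho = 0.833 (exact permutation p = 0.0154, adjusted 0.0154), and r = 0.903 without both FS_Ia libraries (exact permutation p = 0.0194). Within FS r was 0.939 (exact permutation p = 0.208). The lists carry no read numbers, so depth, enrichment and duplication cannot be told apart.

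Lists of like length still differed. FS_Ia replicate 2, with 25567 peaks and the lowest background, held 72 broad peaks, whereas PS_Ia replicate 1, with 20016 peaks, held 302. When every list was reduced to its 10304 strongest peaks, PS_Ia replicates 1 and 2 still held 302 and 2160 broad peaks, PS_Ca 1389 and 21, FS_Ia 20 and 72, and FS_Ca 23 and 1194. That cut keeps the whole list of PS_Ca replicate 2 and most of the 13433 peaks of FS_Ia replicate 1, so little or nothing could be lost there. Counted by fold within each list, the broad peaks outside the top 25% were 4.30% and 1.96% in PS_Ia, 4.94% and 14.3% in PS_Ca, 1 of 20 and 9.72% in FS_Ia, and 8.70% and 4.26% in FS_Ca. At that equal length the median width of all peaks was 887 and 1325 bp in PS_Ia, 1228 and 346 bp in PS_Ca, 555 and 610 bp in FS_Ia, and 551 and 1109.5 bp in FS_Ca. The 10304 strongest peaks as a group were thus wider or narrower, not only the broadest. Over the uncut lists the median was 600 and 470 bp in PS_Ia, 563 and 346 bp in PS_Ca, 487 and 386 bp in FS_Ia, and 431 and 513 bp in FS_Ca. Those medians did not rank the lists by their number of broad peaks.

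Most broad peaks passed the limit by little. Of the 5276, 4161 (78.9%) were 2 to 3 kb wide, and 104 (1.97%) reached 5 kb. The median width was 2341 and 2489.5 bp in PS_Ia, 2382.5 and 2535 bp in PS_Ca, 2333.5 and 2290.5 bp in FS_Ia, and 2416 and 2391 bp in FS_Ca, so the medians of the lists with 20 to 23 broad peaks lay on both sides of those of the lists with 1198 or more. Peaks of 5 kb or more numbered 7 and 56 in PS_Ia, 23 and 1 in PS_Ca, 1 and 1 in FS_Ia, and 1 and 14 in FS_Ca. The widest was 16103 bp, in PS_Ia replicate 2. No gap in width marked the limit of 2000 bp. In the 100 bp from the limit up, PS_Ia replicate 2 held 294 peaks with a median fold of 12.4, and in the 100 bp below it 350 with the same median of 12.4. In PS_Ca replicate 1 these were 233 peaks at 15.8 and 281 at 14.1.

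Width and fold enrichment went together across the peaks of every list, which describes the lists and was not tested, since both come from the same fragments. Spearman's rho of width and fold over all peaks was 0.762 and 0.71 in PS_Ia, 0.794 and 0.614 in PS_Ca, 0.679 and 0.714 in FS_Ia, and 0.691 and 0.735 in FS_Ca. Within the broad peaks alone it was lower, from 0.245 in PS_Ia replicate 1 to 0.397 in FS_Ia replicate 1. The median fold of broad peaks lay between 13.6 (FS_Ca replicate 1) and 23.7 (FS_Ia replicate 2), against 4.83 (PS_Ia replicate 2) to 6.96 (FS_Ia replicate 1) for narrower peaks, and their median summit was 18 to 29 fragments high.

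The strongest peaks of a list were wide in some libraries and narrow in others. The 1% of peaks with the highest fold had a median width of 1701 and 2523 bp in PS_Ia, 2373 and 703 bp in PS_Ca, 1034 and 1077 bp in FS_Ia, and 1016 and 2183.5 bp in FS_Ca. Broad peaks made up 29.9% and 69.8% of them in PS_Ia, 67.1% and 8.62% in PS_Ca, 7.32% and 9.67% in FS_Ia, and 3.61% and 59.3% in FS_Ca. The low shares were bounded by the number of broad peaks, such as 21 beside 116 top peaks in PS_Ca replicate 2 and 20 beside 123 in FS_Ia replicate 1. Seen from the broad peaks, 21.2% and 13.6% of those of PS_Ia were in the top 1%, 13.4% and 47.6% in PS_Ca, 45.0% and 36.1% in FS_Ia, and 26.1% and 15.4% in FS_Ca. In PS_Ca replicate 2, 74.1% of its top 1% were under 1000 bp wide, and in PS_Ca replicate 1 4.64% were. The lowest fold of any broad peak was 4.83, in PS_Ia replicate 2, at a height of 8 fragments.

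**Figure D2:**
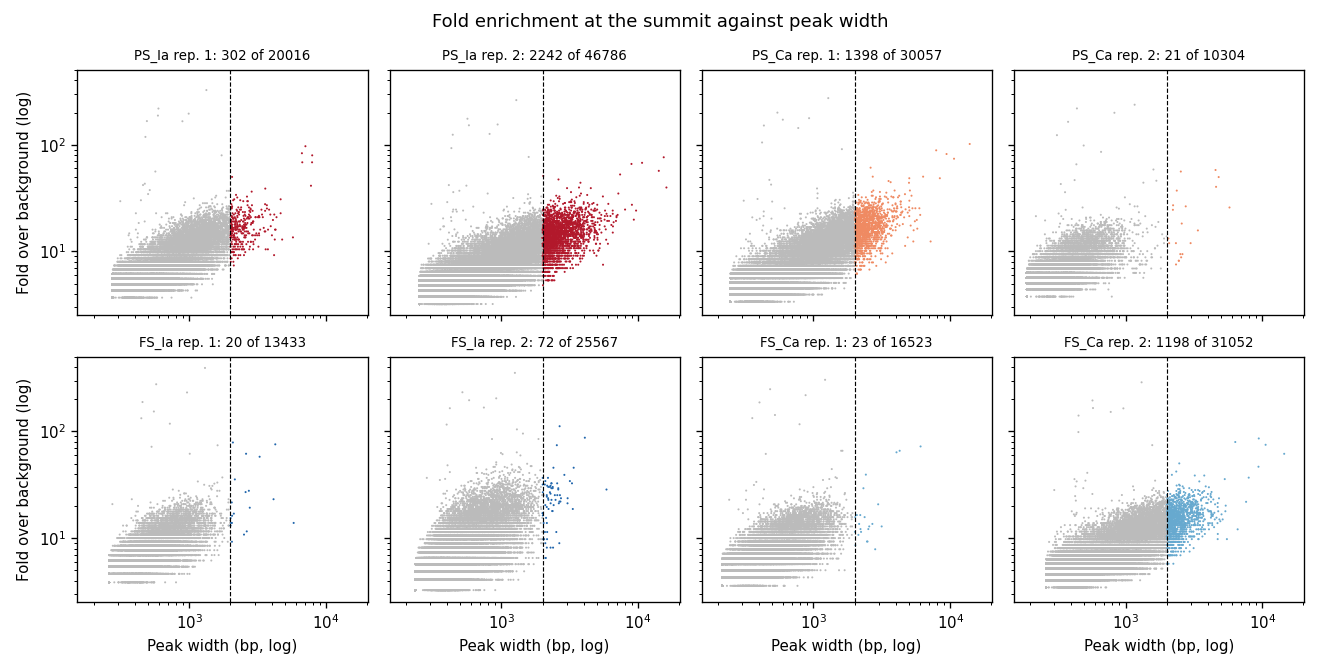
Fold enrichment at the summit (log axis) against peak width in bp (log axis), 1 panel per library and 1 point per peak. Peaks of 2000 bp or more, right of the dashed line, are coloured. The cloud rises with width in all 8 panels (rho from 0.614 to 0.794), and narrow peaks with folds above 100 stand apart at the upper left.

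Summits lay near the middle of broad peaks in the lists that held many of them. With each peak cut into 3 equal parts, the middle part held the summit in 62.6% and 63.1% of broad peaks in PS_Ia and in 71.7% of PS_Ca replicate 1, and in 64.7% of FS_Ca replicate 2. Narrower peaks of the same lists gave 63.6%, 57.0%, 59.5% and 58.7%, below the broad peaks in all but PS_Ia replicate 1. In the lists with 20 to 72 broad peaks the shares were 33.3% of 21 peaks in PS_Ca replicate 2, 9 of 20 and 58.3% of 72 in FS_Ia, and 60.9% of 23 in FS_Ca replicate 1. There the narrower peaks were the more central, with 65.7% in PS_Ca replicate 2, 67.1% and 65.2% in FS_Ia, and 64.1% in FS_Ca replicate 1. A summit in the first or last 10% of the peak was seen in 0.572% (PS_Ca replicate 1) to 13.0% (FS_Ca replicate 1) of broad peaks. Narrower peaks gave 1.31% (FS_Ia replicate 1) to 2.63% (PS_Ia replicate 2). Broad peaks exceeded them in PS_Ca replicate 2 (4.76% against 1.57%), FS_Ia replicate 1 (10.0% against 1.31%) and FS_Ca replicate 1 (13.0% against 1.62%). These lists held only 20 to 23 broad peaks, and in all other lists broad peaks lay below the narrower ones. The median distance from the summit to the nearer edge was 898 and 955 bp in PS_Ia, 951 and 668 bp in PS_Ca, 763.5 and 823.5 bp in FS_Ia, and 819 and 913 bp in FS_Ca. In PS_Ca replicate 2, the summit lay between 80% and 90% of the way along in 8 of the 21 broad peaks (38.1%). Of these 8, 3 were on chromosome 8.

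**Figure D3:**
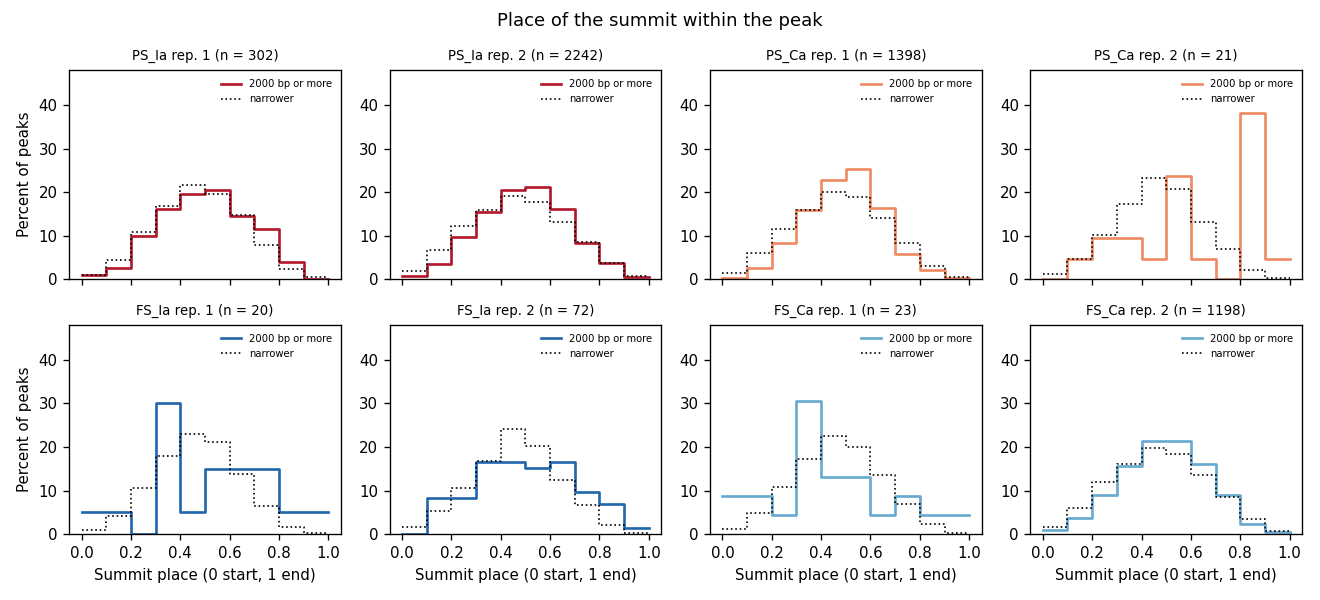
Place of the summit within the peak, as a fraction of the width from start (0) to end (1), in 10 bins. Solid lines are peaks of 2000 bp or more, with their number in the title, and dotted lines the narrower peaks of the same list. The lists with 302 or more broad peaks centre on 0.5, and PS_Ca replicate 2 has 38.1% of its 21 peaks between 0.8 and 0.9.

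Most broad loci were broad in only 1 or 2 libraries. Of the 3042 loci, 1712 (56.3%) were broad in a single library, 729 in 2, 422 in 3 and 150 in 4 libraries. Only 29 were broad in 5 or more, of which 16 were broad in 5, 8 in 6, 1 in 7 and 4 in all 8. To be broad in 5 or more, a locus must be broad in a list with only 20 to 72 broad peaks, which bounds this number. Loci broad in 1 library came mainly from the lists with the most broad peaks: 1051 from PS_Ia replicate 2, 370 from PS_Ca replicate 1 and 235 from FS_Ca replicate 2. The other lists added 42 (PS_Ia replicate 1), 7 (PS_Ca replicate 2), 1 and 6 (FS_Ia) and 0 (FS_Ca replicate 1). The few broad loci of the lists with 20 to 72 broad peaks were thus mostly broad elsewhere as well: 12 of 19 in PS_Ca replicate 2, 19 of 20 and 66 of 72 in FS_Ia, and 21 of 21 in FS_Ca replicate 1.

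As sites, the broad loci recurred far more often than as broad peaks. A peak of any width stood in all 8 libraries at 2481 of the 3042 loci (81.6%), and no locus had a peak in 1 library only. Among all 62813 regions made by joining the peaks of the 8 lists, 6672 (10.6%) had a peak in every library. The loci were chosen for width and wide stretches overlap more peaks, so nothing is read from the difference between these shares. The 2242 broad peaks of PS_Ia replicate 2 overlapped a peak in 84.7% (PS_Ca replicate 2) to 99.6% (FS_Ca replicate 2) of cases, against 16.3% to 45.6% for its narrower peaks. In the other lists, the strongest peak overlapping a broad peak of PS_Ia replicate 2 ranked at a median percentile of 7.39 to 24.3, where 0 is the strongest, against 35.8 to 57.9 for those overlapping narrower peaks. The median distance between the summits was 69 to 105 bp for broad peaks and 87 to 132 bp for narrower ones. Nothing is read from these contrasts either, since the broad peaks of PS_Ia replicate 2 were wider and had a median fold of 14.5 against 4.83.

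The 3 longest lists, which also held the most broad peaks, shared more of these with each other than with the rest. Of the broad peaks of PS_Ia replicate 2, 38.9% overlapped a broad peak of PS_Ca replicate 1 and 36.5% one of FS_Ca replicate 2, but 9.68% one of its own replicate. Of the broad peaks of PS_Ca replicate 1, 62.5% overlapped a broad peak of PS_Ia replicate 2, 47.7% one of FS_Ca replicate 2 and 0.858% one of PS_Ca replicate 2. For FS_Ca replicate 2 these were 68.6% with PS_Ia replicate 2, 55.8% with PS_Ca replicate 1, and 18 of 1198 peaks with FS_Ca replicate 1. Long lists offer more broad peaks to overlap, and whether sharing goes beyond that was not tested.

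The same sites were drawn at other widths in other libraries. At the 6672 regions with a peak in all 8 libraries, the widest peak had a median width of 956.5 and 1458.5 bp in PS_Ia, 1415 and 390 bp in PS_Ca, 618 and 635 bp in FS_Ia, and 611 and 1252 bp in FS_Ca. It was broad at 3.99% and 26.9% of these regions in PS_Ia, 19.3% and 0.225% in PS_Ca, 0.300% and 0.974% in FS_Ia, and 0.315% and 15.9% in FS_Ca. PS_Ca replicate 2 drew the shared sites narrowest, and PS_Ia replicate 2 drew them widest.

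Where a locus was not broad in a library, that library usually had a single narrower peak there. Each of the 3042 loci was read in each library as broad, as 2 or more narrower peaks, as 1 narrower peak or as no peak. Over the 19133 cases in which a locus was not broad, 65.5% held 1 narrower peak, 29.2% held 2 or more and 5.32% none. The share with 2 or more depended on the settings: it was 8.65% with lists of equal size, 12.6% with peaks of a −log10 q of at least 5, 14.5% with peaks under 500 bp apart joined, 18.8% with a width limit of 1500 bp and 49.8% with one of 3000 bp. At 2484 loci (81.7%) at least 1 library resolved the locus into 2 or more peaks.

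Over all loci, the libraries that resolved the most into several peaks were not those with the fewest broad peaks. Loci with 2 or more narrower peaks and no broad one numbered 718 and 505 in PS_Ia, 750 and 308 in PS_Ca, 531 and 1108 in FS_Ia, and 695 and 969 in FS_Ca. FS_Ia replicate 2 thus split the most loci, 1108, with 246 of them in 3 or more peaks, and PS_Ca replicate 2 the fewest, 308. PS_Ca replicate 2 instead had 1 narrower peak at 2297 loci and none at 418. As a share of the loci not broad in the library, splitting ran from 10.2% (PS_Ca replicate 2) to 61.5% (PS_Ia replicate 2), and was 26.1% in PS_Ia replicate 1, 45.2% in PS_Ca replicate 1, 17.6% and 37.3% in FS_Ia, and 23.0% and 51.9% in FS_Ca. These denominators differ, since PS_Ia replicate 2 had only 821 loci left that it did not draw broad.

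Gaps between the pieces were short in the lists with many broad peaks. The median gap between neighbouring peaks of a split locus was 393 and 261 bp in PS_Ia, 290 and 678 bp in PS_Ca, 499 and 402 bp in FS_Ia, and 443 and 302.5 bp in FS_Ca. No list held peaks closer than 151 bp to each other. The pieces covered a median of 23.0% of the locus in PS_Ca replicate 2 and 75.1% in PS_Ia replicate 2. A wider locus has room for more peaks, and the share split was 23.5% of the cases not broad at loci of 2 to 3 kb, 42.8% at 3 to 5 kb and 79.6% at the 94 loci of 5 kb or more. Of these 94 loci, 50.0% and 1.06% were split in PS_Ia, 14.9% and 62.8% in PS_Ca, 64.9% and 79.8% in FS_Ia, and 72.3% and 16.0% in FS_Ca. At this width the lists with 20 to 72 broad peaks therefore split the most. A locus drawn broad in a library does not count as split there.

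**Figure D4:**
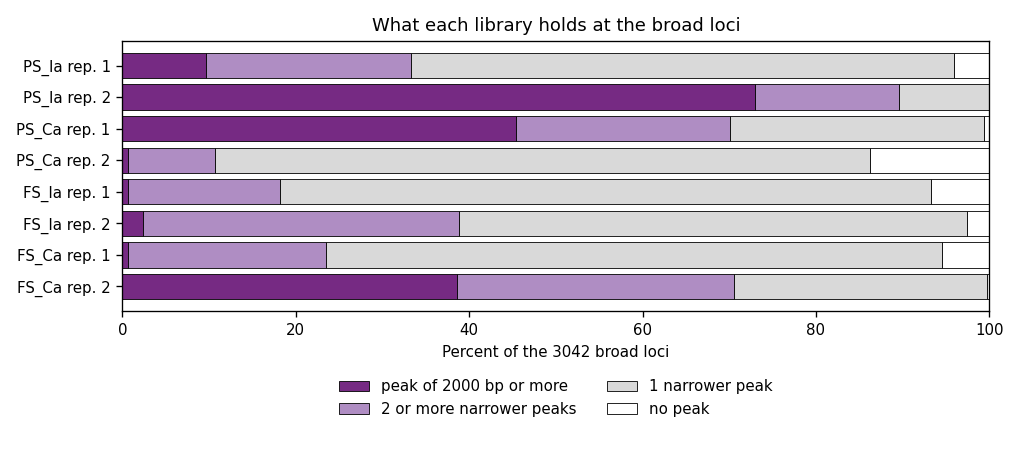
What each library holds at the 3042 broad loci, as a percent of the loci: a peak of 2000 bp or more, 2 or more narrower peaks, 1 narrower peak, or no peak. PS_Ia replicate 2 draws 73.0% of the loci broad and leaves 0.0657% empty, whereas PS_Ca replicate 2 draws 19 of the 3042 broad and leaves 13.7% empty.

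The 4 loci broad in every library were of unlike build. Chromosome 1, 85265532 to 85287045 was the widest locus of all at 21514 bp. Its widest single peak spanned 7068 and 15387 bp in PS_Ia, 13883 and 4549 bp in PS_Ca, 4255 and 4077 bp in FS_Ia, and 6071 and 9418 bp in FS_Ca. PS_Ia held 8 and 2 peaks in the locus, PS_Ca 3 and 12, FS_Ia 10 and 15, and FS_Ca 14 and 3. The same stretch was therefore 2 or 3 peaks in the 3 libraries with the most broad peaks and up to 15 in the others, yet the tallest summit fell within 127 bp in all 8 libraries, with folds of 58.0 to 101.6.

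Its neighbour at chromosome 1, 85236096 to 85250547 behaved alike. It was 1 peak of 14162 bp in PS_Ia replicate 2 and 1 of 14452 bp in FS_Ca replicate 2, but 4 peaks in PS_Ia replicate 1, 3 and 10 in PS_Ca, 7 and 8 in FS_Ia and 9 in FS_Ca replicate 1. The tallest summits lay within 87 bp, with folds of 40.3 to 74.4.

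Chromosome 17, 39979924 to 39985793 was the opposite case. It was a single peak of 5729 and 5800 bp in PS_Ia, 5745 and 5754 bp in PS_Ca, and 5799 and 5870 bp in FS_Ia, and a pair of peaks in FS_Ca, the wider of 3153 and 4439 bp. In the 6 lists that drew it as 1 peak it started between 39979924 and 39980005 and ended between 39985692 and 39985793. These libraries drew the regions present in every list at very different widths. The widest single peak of PS_Ca replicate 2 and of both FS_Ia libraries was this one. Its summit wandered over 4703 bp, and its folds were modest at 12.7 to 28.6. Copy number and repeats were not checked at this or any other locus.

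Chromosome 10, 7230953 to 7235286 came between these. Its widest peak measured 4184 and 4103 bp in PS_Ia, 4332 and 2754 bp in PS_Ca, 4132 and 2888 bp in FS_Ia, and 2973 and 2825 bp in FS_Ca, with folds of 20.8 to 39.2 and summits spread over 1709 bp. The locus broad in 7 libraries, chromosome 1, 87474612 to 87493621, missed FS_Ca replicate 1, which had 13 peaks there, the widest 1904 bp. It held the widest peak of the series, 16103 bp in PS_Ia replicate 2, and its tallest summits lay within 47 bp.

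Among the 8 loci broad in 6 libraries, the widest peaks at chromosome 16, 96164836 to 96169081 spanned 3692 and 3626 bp in PS_Ia and 3989 bp in PS_Ca replicate 1, but 382 bp in PS_Ca replicate 2. They spanned 1207 and 2368 bp in FS_Ia and 2076 and 3997 bp in FS_Ca, with summits within 224 bp of each other. The folds ran from 11.3 in PS_Ca replicate 2, where the peak was narrowest, to 27.1 in PS_Ia replicate 1. At chromosome 1, 84983319 to 84992718 folds were 46.0 to 85.0 in all lists, and widths ran from 1680 bp in PS_Ca replicate 2 to 9400 bp in PS_Ca replicate 1. The narrowest of these had the lowest fold, 46.0, whereas the highest, 85.0, stood over a peak of 1868 bp in FS_Ia replicate 2.

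The loci most often split were picked for holding 2 or more narrower peaks in 7 libraries, and were therefore broad in only 1. Chromosome 17, 75768331 to 75774343 was 1 peak of 6013 bp in PS_Ia replicate 2, with a fold of 11.8. It was 4 peaks in PS_Ia replicate 1, 4 and 2 in PS_Ca, 2 and 3 in FS_Ia, and 2 and 4 in FS_Ca, none wider than 1890 bp, with folds of 6.19 to 14.2. The strongest of these summits lay up to 3239 bp apart. At chromosome 16, 36719317 to 36725155 the same library drew 1 peak of 5839 bp where the other 7 drew 2 or 3. Not every such locus belonged to PS_Ia replicate 2: chromosome 7, 79382944 to 79385964 was broad, at 3021 bp, only in PS_Ca replicate 1, and chromosome 4, 141803614 to 141805995 was broad, at 2382 bp, only in FS_Ca replicate 2.

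**Figure D5:**
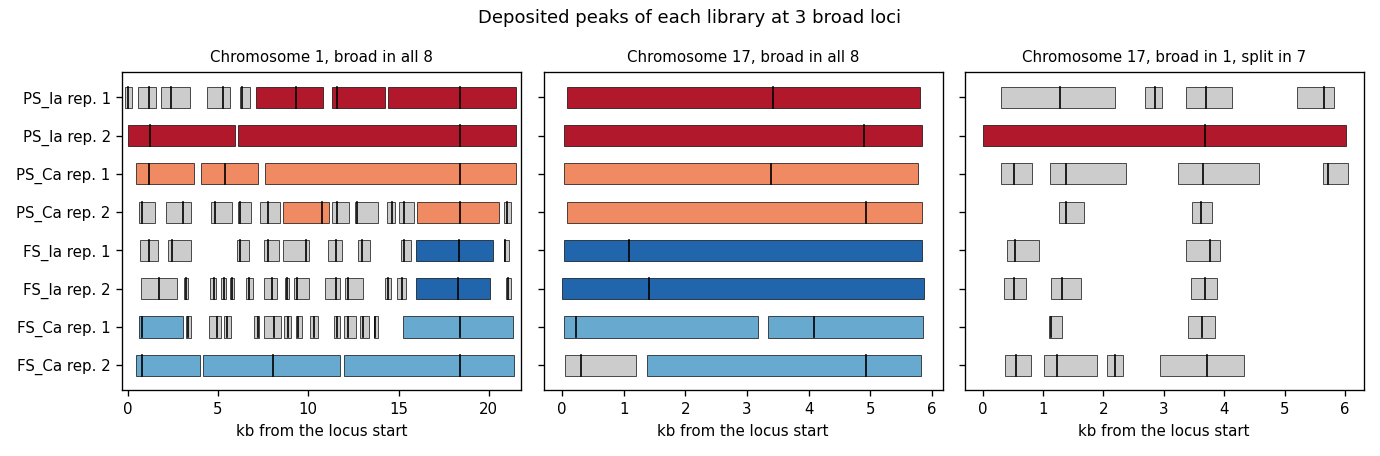
Deposited peaks of each library at 3 broad loci, in kb from the locus start. Coloured boxes are peaks of 2000 bp or more, grey boxes narrower peaks, and black ticks the summits. The locus on chromosome 1 is 2 or 3 peaks in PS_Ia replicate 2, PS_Ca replicate 1 and FS_Ca replicate 2 and up to 15 elsewhere, the first locus on chromosome 17 has nearly the same edges in the 6 lists that draw it as 1 peak, and the last is 1 peak of 6013 bp in PS_Ia replicate 2 and 2 to 4 narrower peaks in the other 7.

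Few broad loci leaned to one orientation or one switch length. No locus was broad in all 4 libraries of one level and in none of the other. By peaks of any width, 1 of the 3042 loci (0.0329%) had a peak in all 4 Ia and no Ca library, beside 16 of all 62813 regions (0.0255%). None had a peak in all 4 Ca and no Ia library (15 of all regions, 0.0239%), in all 4 PS and no FS library (22, 0.0350%), or in all 4 FS and no PS library (5, 0.00796%). Since most broad loci had a peak in every library, few could lean by this rule.

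The largest lean by broad peaks was 3 libraries, at 26 of the 3042 loci for PS over FS. Of these, 25 were broad in 3 PS libraries and in no FS library, and 1 in all 4 PS libraries and in FS_Ca replicate 2. At chromosome 11, 11871618 to 11875979 the widest peak was 3697 and 4166 bp in PS_Ia and 3920 and 718 bp in PS_Ca, against 891 and 1468 bp in FS_Ia and 941 and 1558 bp in FS_Ca. The folds there, 25.3 and 25.8 in PS_Ia, 37.2 and 19.5 in PS_Ca, 22.4 and 16.4 in FS_Ia and 16.5 and 20.2 in FS_Ca, overlapped between PS and FS. Leans of 2 libraries were seen at 32 of the 3042 loci for Ia over Ca, at 122 for Ca over Ia and at 1 for FS over PS. A lean needs libraries with many broad peaks. PS_Ca replicate 1 and FS_Ca replicate 2 held 1398 and 1198, whereas FS_Ia held 20 and 72. No matching share over all regions was counted, so nothing is read from the size of these leans.

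The 3' side of Igh, which stayed within the chosen stretch, held a broad locus at chromosome 12, 114457871 to 114462132, downstream of Cα. This side of the locus carries the regulatory region and CTCF-binding elements that anchor its loops, and the labels' deletion of the non-coding allele in Ca lines reaches into it. All 8 libraries had a peak in it, and its widest peak was 2160 and 2089 bp in PS_Ia, 2494 and 501 bp in PS_Ca, 1036 and 1359 bp in FS_Ia, and 1176 and 4253 bp in FS_Ca. Folds were 11.7 and 18.8 in PS_Ia, 15.2 and 7.56 in PS_Ca, 9.28 and 14.7 in FS_Ia, and 13.6 and 16.8 in FS_Ca. FS_Ca replicate 2 drew the locus as 1 peak and the other libraries as 2 or 3. Another locus at 114382298 to 114385333 was broad, at 3036 bp, in PS_Ia replicate 2 only.

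Broad loci stood closer together than even spacing would put them, as did the shared sites and all regions. No random placement was drawn for comparison. The median distance from a broad locus to the nearest other was 85.7 kb, against a mean spacing of 789.3 kb, and 54.4% had another within 100 kb and 14.4% within 10 kb. The share within 100 kb was 38.8% without PS_Ia replicate 2, 29.2% with a width limit of 3000 bp and 70.1% with one of 1500 bp. For the 6672 regions present in all libraries the median distance was 58.9 kb against a mean spacing of 359.9 kb, and 65.9% had another within 100 kb and 12.6% within 10 kb. All 62813 regions gave 1.79 kb against 38.2 kb, with 97.8% within 100 kb and 79.3% within 10 kb. Of 2189 windows of 1 Mb, 1140 (52.1%) held no broad locus, and the counts of broad loci and of regions present in all libraries went together over the windows (Spearman's rho = 0.794, a description over windows that share their libraries). Per chromosome, there were 3.65 (chromosome 13) to 6.35 (chromosome 14) broad loci per 100 regions of all kinds. Per 100 regions present in all libraries, there were 32.0 (chromosome 18) to 75.6 (chromosome 16).

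The fullest window was chromosome 14, 70000001 to 71000000, with 20 broad loci. It was followed by chromosome 1, 85000001 to 86000000 with 18, and by 3 windows with 15 each, on chromosome 1 from 87000001, chromosome 15 from 102000001 and chromosome 14 from 32000001. These windows differed in who drew them broad. In that of chromosome 14 from 70000001, broad peaks numbered 1 and 21 in PS_Ia, 7 and 0 in PS_Ca, 1 and 0 in FS_Ia, and 0 and 9 in FS_Ca, and 1 locus was broad in 4 or more libraries. In that of chromosome 1 from 85000001 they numbered 17 and 20 in PS_Ia, 20 and 5 in PS_Ca, 2 and 2 in FS_Ia, and 5 and 20 in FS_Ca, and 9 loci were broad in 4 or more.

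The stretch of chromosome 1 around it, with limits chosen after its values were seen, held 8 of the 29 loci broad in 5 or more libraries and 2 of the 4 broad in all 8. From 84959094 to 87523177 it contained 31 broad loci of 194.6 kb together, 15 of them broad in 4 or more libraries. PS_Ia replicates 1 and 2 had 26 and 34 broad peaks there, PS_Ca 31 and 7, FS_Ia 4 and 4, and FS_Ca 6 and 33. Of the 10 widest single broad peaks counted once per locus, 7 lay in this stretch. No list of duplicated or repeat-derived segments of mm9 was used.

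A second stretch stood out in PS_Ca replicate 2, which otherwise had the fewest broad peaks but 1. Of its 21 broad peaks, 8 were on chromosome 8 and 7 of those between 19757927 and 19971760. In the stretch that holds the 9 broad loci there (19702692 to 19986606, chosen after its values were seen), PS_Ia had 57 and 63 peaks of any width, PS_Ca 70 and 97, FS_Ia 29 and 36, and FS_Ca 52 and 50. The shortest list thus had the most peaks there, covering 69.7 kb, and 6 of the 9 loci were broad in it alone. Over the whole of the chosen genome PS_Ca replicate 2 had the fewest peaks instead. Its median width in the stretch was 430 bp, against 416 to 499 bp in the other libraries, and so not among the widest.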

How the data were processed

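Rad21 ChIP-seq peaks of 8 libraries were used as deposited. Formaldehyde-fixed, sonicated chromatin was precipitated with ab992, and Tn5 tagmented it on the beads before paired-end sequencing, per the labels' protocols. The submitters' processing notes name MACS2 2.2.7.1, Bowtie2 2.4.4, deepTools 3.5.1 and SAMtools 1.15.1 with mm9. Settings, threshold, read numbers and a control were not given in the sources used here. With 1 list of 10 columns for every library, the authors called peaks per library.

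The deposited columns hold a score, the fold over background as a ratio at the summit, −log10 p and −log10 q, and the summit's distance from the start. They are the authors' values and were used to describe, rank or filter peaks within a list. Heights were read as fold × (background + 1) − 1, which came within 0.000911 of whole numbers in every list.

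Width was end minus start, and peaks of 2000 bp or more were kept. Coordinates are 1-based mm9. Libraries were compared by exact two-sided permutation, and correlations by exact permutation over all orders. Named loci were those broad in most libraries, with the widest peaks, most often split, leaning most to a feature, and the 5 fullest windows of 1 Mb. The rule, the members and the lists were chosen with earlier results of these data known. Alternatives were other width limits (1500 and 3000 bp), −log10 q of at least 5, lists of equal size, peaks under 500 bp apart joined, the tallest 1% left out, whole chromosomes, another overlap, each library left out, and values within the sets of peak names. Leaving out the stretch of chromosome 1 was added after seeing the data. No mm9 sequence or annotation was used here, so no gene was assigned. Computation used scipy 1.17.1, pandas 2.3.3 and numpy 2.4.6 under Python 3.11.15, and figures matplotlib 3.10.9; the scripts were tested on simulated data.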

Additional observations from a re-analysis of the deposited data

Results flagged for a closer look

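Among the Ia libraries, PS_Ia replicate 2 stood apart with 2242 broad peaks; the gap to the next Ia library was 0.873 of the whole range. Among the FS libraries, FS_Ca replicate 2 stood apart with 1198 broad peaks (0.956 of the range) and with a share of 3.86% of its peaks (0.962). Each ratio exceeded Dixon's 95% critical value for 4 libraries, and 28 groups of 4 values were examined. Chance passes about 1 in 20 such groups. Without PS_Ia replicate 2, 3034 broad peaks and 2005 loci remain in the other 7 libraries.

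Outside the chosen part of the genome the lists held 171 more peaks of 2000 bp or more. Of these, 113 lay at chromosome starts, 2 at the end of chromosome 12 and 56 on X and other chromosomes. PS_Ia had 22 and 27, PS_Ca 25 and 22, FS_Ia 18 and 17, and FS_Ca 23 and 17. These numbers were nearly level across libraries that differed more than 100-fold inside the chosen part, and the widest of them spanned 29283 bp.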

How the results depend on the processing

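Of 205 recomputed values, 153 counted as the same, 38 moved and 14 changed sign. A difference or relation was the same if it kept its direction and, where tested, its side of the threshold. Counts had to stay within a fixed fold of the main value, and the median rho within its SD over libraries. Percentages had to stay inside a binomial confidence interval over pooled peaks, loci or cases. That interval takes these as independent and is no spread between libraries. All 14 were differences between Ia and Ca, which passed the threshold in no setting. Ia minus Ca in number was 50.8 with a limit of 3000 bp, 47.0 with close peaks joined, 1.25 with whole chromosomes and also without the stretch of chromosome 1, 2221 within PS replicates 2, and from -528.7 to 245 with 1 library left out. Ia minus Ca in share was 0.0119 with a limit of 3000 bp, 4.59 within PS replicates 2, and from -1.57 to 0.282 with 1 library left out. PS minus FS stayed above 0 in every setting run. Broad peaks numbered 12567 from 1500 bp, 1115 from 3000 bp, 10688 with close peaks joined, and 3034 to 5256 with 1 library left out; loci numbered 6221, 749, 5497, and 2005 to 3042. Loci broad in all 8 libraries were 7 from 1500 bp, 2 from 3000 bp, 9 with close peaks joined, 9 with whole chromosomes, 2 without the stretch of chromosome 1 and 0 without the tallest 1%. The cause of these shifts was not tested, beyond the limit itself. The relation to list length has no value for lists of equal size.

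Replicate numbers went with the sets of peak names in the PS libraries, but not in the FS libraries. Same-numbered deviations of fold from the genotype means correlated between -0.212 and 0.402, and 1 of 6 pairs exceeded 0.1. With so few replicates these values cannot exclude a pairing. With labels permuted within replicate numbers (replicate block), the differences of -1, 662.5, -0.530 and 1.68 had exact permutation p-values of 0.944, 0.278, 1.00 and 0.278, where 36 assignments allow no p below 0.0556. Depth is not known, and a site missing from a short list is not shown to lack Rad21.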
